A study of Mus musculus with 2 samples.

Results

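A small set of differentiating cells in the mouse cheek lining carried many transcripts of Krt16, S100a8 or Alox15. They were chosen by counts of unique molecular identifiers (UMIs, one per captured transcript) in each cell. A cell belonged to the set when Krt16, S100a8 and Alox15 together held at least 10 of every 10000 UMIs and the keratins Krt4 and Krt13 together held at least 80. The set, called score-high here, held 239 of 15470 kept cells, of which 89 came from library 1 and 150 from library 2. It was set against the 7616 score-low cells (3301 and 4315), which reached the same keratin threshold with fewer than 10 score UMIs per 10000. Both sets come from 1 suspension of buccal mucosa from 10 pooled 12-week-old C57BL/6 females. No treatment, transgene or mutation is named for the animals, so both sets share the same background. The suspension was sorted for much surface CD104 (the β4-integrin chain, gene Itgb4), which marks cells of the basal layer, and was then loaded as 2 technical replicates on the 10x Chromium platform. The sort therefore limits the material: differentiating cells are those that passed a gate set for basal ones. With 1 independent sample no test of a difference was possible, and every comparison below is a description of these libraries. Intervals are exact, at 95%, and cover counting error only.

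Stratified oral epithelium renews itself from basal cells that detach from the basement membrane, stop dividing and switch on the mucosal keratins Krt4 and Krt13. Krt16 and its relatives Krt6a, Krt6b and Krt17 are known as stress keratins, which keratinocytes make after wounding or in inflamed skin. S100a8 and S100a9 form calprotectin, a secreted alarm protein best known from neutrophils and also made by activated keratinocytes. Alox15 is a lipoxygenase that oxidises arachidonic and linoleic acids, and in airway epithelium and macrophages it is induced by interleukin-4 and interleukin-13 through the transcription factor STAT6.

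The 3 score genes did not mark one kind of cell. In the score-high set the median cell had 13.3 (library 1) and 15.0 (library 2) Alox15 UMIs per 10000, but 0 Krt16 and 0 S100a8 in both libraries. Alox15 was the leading score gene in 78 of 89 cells and in 119 of 150 cells. Krt16 led in 10 and 30 cells, S100a8 led in 1 cell of library 2, and 1 cell of library 1 was tied. At least 1 Krt16 UMI was found in 24 of 89 and 51 of 150 cells, and at least 1 S100a8 UMI in 14 of 89 and 22 of 150. Cells in which more than 1 of the genes reached 10 per 10000 numbered 5 and 14. S100a8 rested on few cells: 1 cell held 39.2% of its UMIs in library 1, and 1 cell held 51.7% in library 2. The set is therefore described below as Alox15-led and Krt16-led cells, and the working idea of one stress-type cell with all 3 genes did not match the counts.

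**Figure D1:**
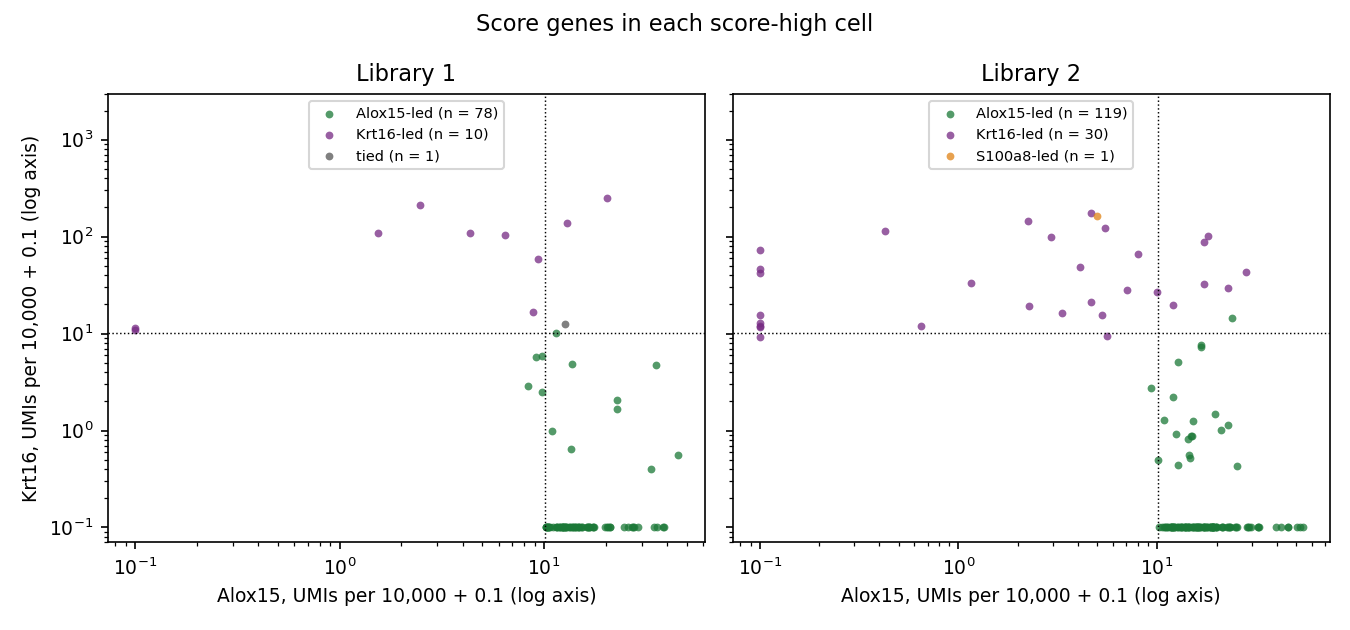
Alox15 (horizontal) against Krt16 (vertical) in each score-high cell of library 1 and library 2, in UMIs per 10000 with 0.1 added, on log axes; dotted lines mark 10 per 10000 and colours give the leading score gene. Most of the 78 and 119 Alox15-led cells lie on the lower edge, with 0 Krt16 UMIs, and few cells lie above 10 on both axes.

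The score-high cells made up 1.29% of the kept library 1 cells (95% interval 1.04 to 1.58) and 1.75% of those of library 2 (1.48 to 2.05). Among cells at or above the keratin threshold they were 2.63% (2.11 to 3.22) and 3.36% (2.85 to 3.93). Alox15-led cells were more frequent where Krt4 and Krt13 were higher. They were 0.328% and 0.351% of the cells with 80 to 160 Krt4 and Krt13 UMIs per 10000, and 6.35% and 5.03% of those with 640 or more. Krt16-led cells were 0.438% and 0.79% of the cells with 80 to 160, 0.446% and 1.33% of those with 160 to 320, and 0.201% and 0.297% of those with 320 to 640. Krt4 and Krt13 chose the cells, so these shares describe the set and are no finding about it.

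Markers of other cell types were low in the score-high set, in which 0 of 89 and 1 of 150 cells were called immune. Of the neutrophil markers other than S100a8 and S100a9, Csf3r, Retnlg, Mmp8, Ly6g, Camp, Ngp and Ltf were at 0 in both libraries, and Cxcr2 stood at 1.21 UMIs per 1000000 (CPM). All 4 eosinophil markers used (Siglecf, Prg2, Epx, Ccr3) were at 0, as was the leukocyte gene Ptprc. Summed levels of 6 general immune markers were 3.92 and 18.7 CPM in score-high cells, against 6.93 and 7.89 CPM in score-low cells. Those of 6 Langerhans or dendritic markers were 29.7 and 96.6 CPM against 28.3 and 48.3 CPM. The melanocyte markers were at 0. Score-high cells were deeper, with a median of 17902 and 13539 UMIs against 10307 and 8771 in score-low cells. They were also more often in the top 5% of their library by UMIs (37.1% and 32.0% against 9.15% and 8.64%), where doublets would gather. No doublets were removed. Mitochondrial UMIs were 2.52% and 2.91% in the median score-high cell, against 3.5% and 3.96% in the median score-low cell. The libraries share 104 barcodes, and none of these is a score-high cell in both.

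Chil4 was higher in nearly all of these cells. It encodes a chitinase-like protein (Ym2) known in mice from the airway epithelium in allergic inflammation. The gene (ENSMUSG00000063779) spans bases 106201490 to 106219507 on the minus strand of chromosome 3 (GRCm38). Its level was 86931 CPM (interval 86499 to 87365) and 92526 CPM (92133 to 92920) in score-high cells, against 3433 CPM (3415 to 3452) and 3283 CPM (3266 to 3300) in score-low cells. The log2 ratios were 4.66 and 4.82. The median score-high cell had 757 and 860 Chil4 UMIs per 10000, against 2.60 and 2.97 in score-low cells. Of the score-high cells, 81 of 89 and 135 of 150 had 100 or more, against 175 of 3301 (5.3%) and 248 of 4315 (5.75%) score-low cells. Immune cells had medians of 3.04 and 2.77, near the score-low medians. Whether Chil4 counts at that level come from free RNA was not tested. After thinning all cells to 3000 UMIs, a Chil4 UMI was held by 97.8% and 97.3% of score-high cells, 58.0% and 63.6% of score-low cells and 70.8% and 66.7% of immune cells.

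Chil4 and the cornified-envelope precursor Sprr2a3, described further on, were both higher in cells with more Alox15, and their RefSeq promoters (GRCm38.p6, the 250 bases before the start site) are shown for that reason. Capitals mark matches on either strand to 2 STAT-type motifs, TTCNNNGAA and the longer form with 4 bases between TTC and GAA, which is the spacing STAT6 prefers, and to the TATA box TATAAA.
Chil4, chr3:106219480-106219729, minus strand: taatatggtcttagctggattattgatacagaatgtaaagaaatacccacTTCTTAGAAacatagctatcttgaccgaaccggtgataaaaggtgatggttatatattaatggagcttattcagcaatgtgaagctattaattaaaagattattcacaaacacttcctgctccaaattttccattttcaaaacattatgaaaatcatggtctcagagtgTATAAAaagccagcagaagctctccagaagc
Sprr2a3, chr3:92285054-92285303, plus strand: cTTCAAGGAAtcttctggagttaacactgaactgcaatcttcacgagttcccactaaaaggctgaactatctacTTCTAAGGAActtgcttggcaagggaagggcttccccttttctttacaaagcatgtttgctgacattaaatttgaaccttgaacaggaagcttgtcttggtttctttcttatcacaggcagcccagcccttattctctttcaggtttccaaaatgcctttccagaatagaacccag
The Chil4 window holds TTCNNNGAA at -200 and TATAAA at -31, and also the CEBP-type motif TTGCNNAA on the reverse strand at -131. The Sprr2a3 window holds TTCNNNGAA at -249 and the form with 4 bases at -176. Positions are counted from the RefSeq start site. The gene spans given here come from GENCODE, whose start for each of these 2 genes differs from that of RefSeq. Of 32851 promoter windows of this length, 7.02% hold TTCNNNGAA, 5.85% hold the form with 4 bases, 12.4% hold TATAAA and 9.56% hold TTGCNNAA, on either strand. Of the other named or score genes with a promoter in the RefSeq table that were searched, Sprr2a1 and Chil3 hold a STAT-type motif, while Sprr2f, S100a8 and Alox12e hold none. The Sprr2a1 motif lies in a stretch identical to that of Sprr2a3, and the Chil3 motif in a stretch identical to that of Chil4. Those matches are therefore not separate examples. The 2 STAT-type motifs did not overlap here, and a match is a description of letters, not of a site in use.

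Below the threshold Chil4 already followed Alox15. In cells with enough Krt4 and Krt13, median Chil4 was 2.45 and 2.80 UMIs per 10000 where no Alox15 UMI was seen. It was 64.3 and 121 where Alox15 held 2 to 5 per 10000, 309 and 279 at 5 to 8, 591 and 544 at 10 to 12, and 965 and 1222 at 20 to 50. The share of cells with 100 or more Chil4 UMIs per 10000 was 0.89% and 1.48% at no Alox15 UMI, 46.1% and 53.1% at 2 to 5, and 100% in both libraries at 20 to 50. Chil4 thus changed by steps across the threshold and not at it. Cells just outside it, with a score of 8 to 10, numbered 31 and 35 and had median Chil4 of 552 and 318, and those just inside, at 10 to 12, numbered 20 and 18 and had 473 and 478. Score-high cells were 31.6% and 35.2% of the differentiating cells with 100 or more Chil4 UMIs, and 52.1% and 64.0% of those with 500 or more. Of the score-low cells with 100 or more, 25 of 175 and 54 of 248 had no Alox15 UMI. Depth moved with Alox15 as well, with median UMIs of 9679 and 8318 where no Alox15 UMI was seen and 28814 and 18256 at 20 to 50; its part in the relation was not tested. Both counts come from the same cells, and cells are not replicates.

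**Figure D2:**
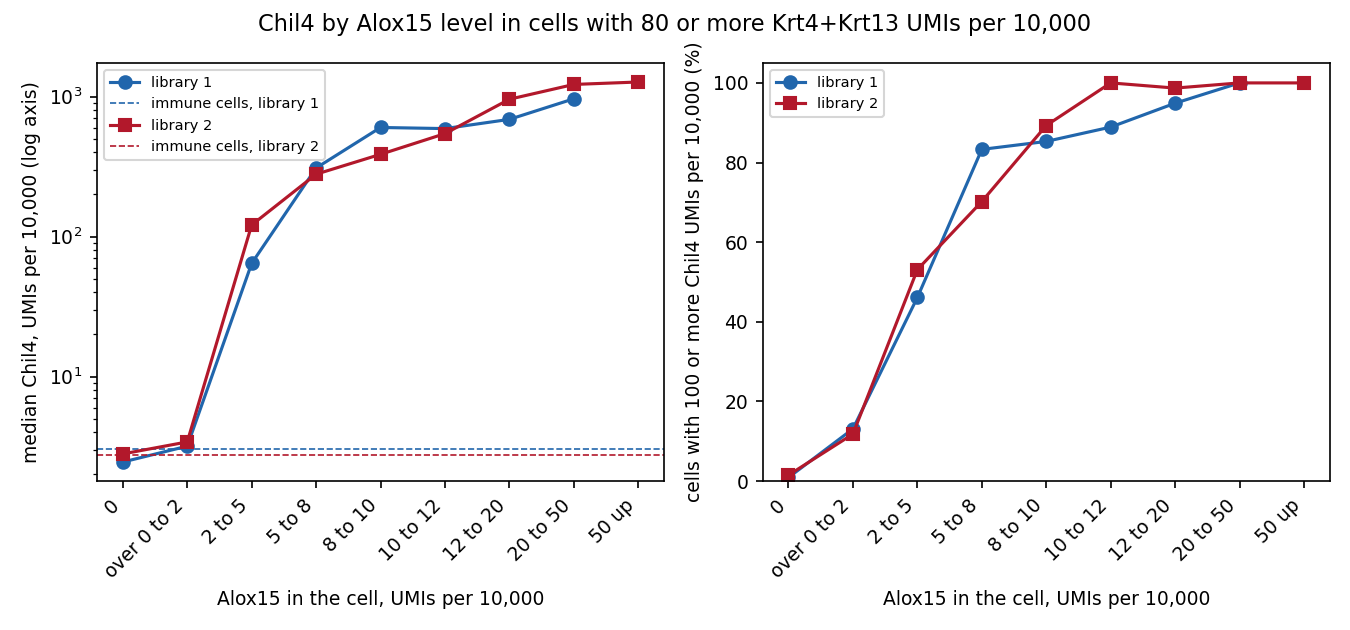
Median Chil4 (left, UMIs per 10000, log axis) and the percent of cells with 100 or more Chil4 UMIs per 10000 (right), by the cell's Alox15 level, in differentiating cells of library 1 (circles) and library 2 (squares); dashed lines give the median in immune cells. Both measures climb from Alox15 levels far under the threshold of 10, and library 1 has no cell at 50 or more.

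Across the transcriptome more genes were lower than higher in score-high cells, but that split depended on scaling. A gene was called when it differed 1.5-fold or more (log2 of 0.58) in library 1 and again, in that direction, in library 2, and when it averaged at least 20 CPM over the 2 classes. Of 4527 genes compared, 139 (3.07%) were called higher and 444 (9.81%) lower. The median log2 ratio over all of them was -0.23, so changes are also given relative to it. Centred on that median, 248 genes were higher and 199 lower. The higher genes were thus 55.5% of the calls with centring and 23.8% without. Of the 139 higher genes, 97 had at least 20 CPM in score-low cells on their own account. Of the 444 lower genes, 307 had at least 20 CPM in score-high cells. The others passed the level filter only through the class where they were higher. With the top 5% of cells by UMIs left out of both sets, 155 genes were higher and 362 lower, and after thinning to 3000 UMIs these counts were 178 and 522. Medians of lists below are for the genes of the list that reached the level filter, as log2 ratios with the all-gene median left in.

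Small proline-rich proteins, the cross-linked precursors of the cornified envelope, included many of the genes furthest above score-low cells. Of 9 measured genes 8 were called higher and 0 lower, but 3 of the 9 (Sprr1a, Sprr2a3 and Sprr3) reached 20 CPM in score-low cells. The other 6 passed the level filter through score-high cells alone, so that count was largely set by the filter. Sprr2a3 (ENSMUSG00000074445, chromosome 3, 92285417 to 92291405, plus strand) stood at 2037 CPM (1971 to 2104) and 2157 CPM (2097 to 2218) in score-high cells, against 46.1 CPM (44.0 to 48.2) and 40.3 CPM (38.5 to 42.2) in score-low cells. Thinned to 3000 UMIs, 65.2% and 68.0% of score-high cells held a Sprr2a3 UMI, against 3.94% and 4.06% of score-low cells and 0 of 24 and 8.33% of immune cells. A count of 0 in 24 cells allows a share of up to 12.5% when taken as 3 cells, and its exact upper limit is 14.2%. Sprr2a1 (117 and 110 CPM against 3.39 and 2.27), Sprr2a2 and Sprr2b followed. These levels are uncertain as a split between copies: every 50-base stretch of the last 500 transcript bases of Sprr2a1 is also in Sprr2a2, and 63.4% of those of Sprr2a3 are in Sprr2a1. Sprr2f (142 and 49.2 CPM against 1.01 and 0.404) owed 92.9% and 57.5% of its UMIs to 1 cell in each library, and its log2 ratio without that cell was 3.35 and 5.71. Sprr3 was not called, at 49.3 and 10.4 CPM against 19.0 and 40.0 CPM.

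Most other cornified-envelope genes were not called. Of 12 measured genes 1 was called higher and 1 lower (median 0.14). The higher one was Tgm1, a transglutaminase that cross-links the envelope, at 86.9 and 65.3 CPM in score-high cells against 30.1 and 31.7 CPM in score-low cells. The lower one was the envelope protein gene Lor, at 17.9 and 19.6 CPM against 31.6 and 57.9 CPM. Cnfn, another envelope protein gene, had log2 ratios of 1.55 and -0.32, with opposite signs in the libraries. Genes of barrier lipids (0 higher and 1 lower of 13), cholesterol synthesis (0 and 0 of 14) and desmosomes (0 and 0 of 10) had medians of 0.01, 0.21 and 0.22.

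Among 8 measured eicosanoid genes, Alox15 left out, 2 were called higher and 1 lower (median -0.29), and 7 of the 8 reached 20 CPM in score-low cells. Alox12e, an epidermal lipoxygenase, stood at 72.3 CPM (60.4 to 85.9) and 79.6 CPM (68.5 to 92.0) in score-high cells, against 4.68 CPM (4.03 to 5.40) and 4.02 CPM (3.45 to 4.66) in score-low cells. Alox12 was at 53.2 and 43.9 CPM against 24.7 and 24.3 CPM. Hpgd, which inactivates prostaglandins, was lower, at 30.8 and 28.7 CPM against 83.7 and 87.9 CPM. The epithelial chemokine gene Cxcl14 was at 194 and 225 CPM against 52.7 and 52.1 CPM. Ccl11, or eotaxin, which draws eosinophils, was at 37.0 CPM (28.6 to 47.1) and 120 CPM (106 to 135) against 1.01 CPM (0.723 to 1.38) and 0.337 CPM (0.189 to 0.556), from 11 and 32 score-high cells. Gsdmc2, of the gasdermin family, was at 47.1 and 62.6 CPM against 2.68 and 2.09 CPM. Its relative Gsdmc had per-cell medians of 8.15 and 9.0 UMIs per 10000 in score-high cells, against 0.668 and 0.86 in score-low cells. The pair share 23.7% of their 50-base stretches at the 3′ end, counted over Gsdmc2. Alox12e and Gsdmc2 passed the level filter through score-high cells alone.

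Chil4 and Ccl11 belong to a list of 21 genes, both components and responders of interleukin-4 and interleukin-13 signalling, of which 6 were measured. Of these, 3 were called higher and 0 lower, the last of them being Chil3 (Ym1), at 77.3 and 11.7 CPM in score-high cells against 0.531 and 0.651 CPM in score-low cells. One cell gave 77.5% of the library 1 Chil3 UMIs, and the 3′ end of Chil3 shares 15.4% of its 50-base stretches with Chil4, whose counts are far larger. The measured genes that were not called were Stat6 (log2 0.12), the receptor gene Il13ra1 (-0.10) and the feedback inhibitor gene Cish (0.39). Chil3 and Ccl11 passed the level filter through score-high cells alone. The list's median of 2.57 was not stable, at 0.23 in library 2 alone and 0.55 in library 1 alone. Among the highest genes, Pyy, a gut peptide hormone gene, was called (66.1 and 20.4 CPM against 0.152 and 0.292) from 4 and 9 cells, with 79.7% and 44.7% of its UMIs in 1 cell.

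Antigen presentation and interferon-induced genes were raised together. Of 12 measured genes of the class I pathway 7 were higher and 0 lower (median 0.96), and 11 of the 12 reached 20 CPM in score-low cells. B2m, the light chain of class I molecules, stood at 2088 and 1911 CPM in score-high cells against 496 and 540 CPM in score-low cells, and per cell at medians of 15.9 and 17.8 UMIs per 10000 against 2.53 and 2.62. Psmb8, an immunoproteasome subunit, was at 96.4 and 69.6 CPM against 12.4 and 13.2 CPM. The heavy chain gene H2-K1 was at 476 and 474 CPM against 235 and 229 CPM. Of 13 measured interferon-induced genes 10 were higher and 0 lower (median 1.29), and 8 of the 13 reached 20 CPM in score-low cells. The higher ones include Bst2, Isg15 and Ifi27l2a. Bst2, which tethers virus particles, was at 129 and 147 CPM against 25.4 and 27.3 CPM, with UMIs in 62 of 89 and 101 of 150 cells. Isg15, a ubiquitin-like protein, was at 147 and 134 CPM against 30.6 and 39.8 CPM. Both lists kept medians of 0.97 and 1.33 when score-low cells were weighted to the same spread of Krt4 and Krt13.

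Chaperones and enzymes of the endoplasmic reticulum were raised too. Of 16 measured genes of the unfolded protein response 10 were higher and 0 lower (median 0.85). Hspa5 (BiP), the main lumenal chaperone, stood at 427 and 522 CPM in score-high cells against 182 and 198 CPM in score-low cells. Sdf2l1, its co-factor, was at 129 and 163 CPM against 39.4 and 41.1 CPM, and the disulfide isomerase gene Pdia6 at 470 and 519 CPM against 196 and 207 CPM. Cytosolic heat shock genes did not follow, with 0 higher and 1 lower of 13 (median -0.06). Of 17 measured glycolysis and hypoxia genes 3 were higher and 0 lower (median 0.23): Egln3, an oxygen sensor (171 and 153 CPM against 40.2 and 41.8), Bnip3 and Ndrg1. Among transcription factors of differentiation, Elf3 (63.3 and 75.3 CPM against 28.9 and 29.1) was higher and Sox15 (23.5 and 33.9 against 79.1 and 85.0) was lower.

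Lower genes included those of cell division, basal attachment and detoxification. All 13 measured G2/M genes were lower (median -1.84), among them Cenpa, a centromere histone (26.3 and 33.9 CPM in score-high cells against 121 and 121 CPM in score-low cells), Ube2c (50.4 and 55.7 against 192 and 190) and Ccnb2, a cyclin (8.97 and 16.1 against 63.7 and 57.2). Ccnb2 passed the level filter through score-low cells alone. How many other genes in the counts of lower genes in this paragraph did so was not determined. Hmmr, Anln, Cdca3, Cenpf, Smc2 and Tk1 were among the 12 lowest as well. Cells with 10 or more UMIs of S and G2/M genes per 10000 were 3.37% and 8.0% of score-high cells against 26.0% and 26.5% of score-low cells. With such cells left out of both sets the G2/M median was -0.33, and Cenpa, Ube2c and Hmmr were no longer called. The G2/M genes themselves helped choose the cells left out, so this smaller gap was partly set by the exclusion. With score-low cells weighted to the same spread of Krt4 and Krt13, the G2/M median was -1.03, with 12 of 12 measured genes lower. In Alox15-led cells alone this weighting moved it from -1.74 (14 of 14 lower) to -0.35 (0 of 10). In Krt16-led cells alone the weighted median was -3.12 (15 of 15 lower). Of 7 measured hemidesmosome genes 4 were lower and 0 higher (median -1.10), including Col17a1 (21.9 and 27.4 CPM against 75.7 and 69.6) and Itga6, the partner of the sorted chain (33.6 and 41.3 against 82.8 and 77.0). With the same weighting 2 of 5 measured hemidesmosome genes were lower (median -0.61). The weighted hemidesmosome median was -0.42 in Alox15-led and -0.93 in Krt16-led cells. Itgb4 itself, the sorting marker (chromosome 11, 115974709 to 116008412, plus strand), was not called: 9.53 and 25.2 CPM against 29.8 and 26.1 CPM. Of 32 measured antioxidant and detoxification genes 13 were lower and 1 higher (median -0.51, or -0.28 relative to all genes). Nqo1, a quinone reductase, was at 124 and 127 CPM against 306 and 347 CPM, and Cyp2f2, a cytochrome P450, at 483 and 418 CPM against 1220 and 1256 CPM. The higher one was the redox protein gene Txn1, at 2809 and 3353 CPM against 1320 and 1231 CPM. Id2, an inhibitor of helix-loop-helix factors, Glul, the glutamine synthetase, and Ptn, a growth factor, were also among the 12 lowest.

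Keratins split the set. The 3 measured stress keratins outside the score, Krt6a, Krt6b and Krt17, were all called higher over the whole set (median 3.55), but Alox15-led and Krt16-led cells differed. Krt17 (chromosome 11, 100256217 to 100261029, minus strand) stood at 5.73 and 13 CPM in Alox15-led cells, 3944 and 1376 CPM in Krt16-led cells and 42.2 and 26.4 CPM in score-low cells. By summed counts it was called higher in Krt16-led cells (log2 6.54 and 5.71) and lower in Alox15-led cells (-2.88 and -1.02). The lower call rests on few score-low cells: 13 of 3301 and 15 of 4315 had 10 or more Krt17 UMIs per 10000, against 0 of 78 and 0 of 119 Alox15-led cells, and all 4 medians were 0. After thinning, 0% and 5.88% of Alox15-led cells held a Krt17 UMI, against 4.18% and 3.45% of score-low cells, so the shares had no common direction. Krt6b stood at 831 and 860 CPM in Alox15-led cells, 14739 and 5761 CPM in Krt16-led cells and 178 and 188 CPM in score-low cells. Krt6a stood at 2603 and 2752, 17781 and 11312, and 1065 and 954 CPM in the same order. Krt14, the basal keratin, stood at 778 and 1058 CPM in Alox15-led cells, 16518 and 10077 CPM in Krt16-led cells and 1297 and 1243 CPM in score-low cells. Its per-cell median was 3.08 and 3.25 UMIs per 10000 in Alox15-led, 109 and 96.3 in Krt16-led and 4.49 and 4.71 in score-low cells. Its partner Krt5 was lower in Alox15-led cells (427 and 532 CPM against 1296 and 1174) and not called in Krt16-led cells (842 and 1411 CPM). Trp63, a basal transcription factor, was called in neither. With score-low cells weighted to the same spread of Krt4 and Krt13, 0 of 3 measured basal keratin genes were called either way in Alox15-led cells. The Krt5 call was thus lost there. In Krt16-led cells with this weighting 1 of the 3 was higher and 1 lower. Over the whole set Krt14 was called higher (log2 0.98 and 1.24), but not without the cell that held 27.3% of its library 1 UMIs (0.55 in that library). Summed levels of 7 basal keratinocyte markers were 2435 and 2691 CPM in Alox15-led cells, 17801 and 12343 CPM in Krt16-led cells and 3643 and 3651 CPM in score-low cells.

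Alox15-led cells, taken alone, had 126 genes (2.80%) higher and 485 (10.8%) lower of 4508, with a median of -0.24. Only 93 of the higher genes reached 20 CPM in score-low cells, and 323 of the lower ones in Alox15-led cells. Krt16-led cells had 311 (6.70%) higher and 490 (10.5%) lower of 4645, with a median of -0.18. Only 185 of the higher genes reached 20 CPM in score-low cells, and 290 of the lower ones in Krt16-led cells. Krt16-led cells were few (10 and 30), and the cell with most Krt16 UMIs gave 21.5% of all their UMIs in library 1 and 7.0% in library 2; without it, 296 genes were higher and 444 lower. Chil4 was raised in both groups: 88588 and 103805 CPM in Alox15-led cells, 72385 and 46456 CPM in Krt16-led cells. Per cell, though, Krt16-led cells ranged widely, with Chil4 at or above 100 per 10000 in 7 of 10 and 16 of 30, against 73 of 78 and 118 of 119 Alox15-led cells. At least 1 Alox15 UMI was found in 8 of 10 and 22 of 30 Krt16-led cells. In those without one, Chil4 was 0 and 5.08 per 10000 in library 1. In library 2 it was 0.91 to 40.7 apart from a cell at 201. Sprr2a3 was also raised in both (1615 and 2335 CPM, and 4881 and 1292 CPM). The class I, interferon and endoplasmic reticulum lists had medians of 0.91, 1.21 and 0.88 in Alox15-led cells and 0.94, 1.92 and 0.91 in Krt16-led cells.

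Compared directly, 310 of 4292 genes (7.22%) were higher and 141 (3.29%) lower in Krt16-led than in Alox15-led cells, with a median of 0.06. Krt4 and Krt13 differed between these groups. In the units of the keratin threshold, their summed median was 187 and 216 in Krt16-led cells of library 1 and library 2. It was 615 and 532 in Alox15-led cells. This comparison was not weighted by Krt4 and Krt13, and the part of that gap in its calls was not tested. The 3 stress keratins were higher here, as were 8 of 12 measured small proline-rich genes, with 0 lower in either list; 2 of the 3 and 6 of the 12 reached 20 CPM in Alox15-led cells. Higher were Sprr1a, at 3483 and 1614 CPM in Krt16-led cells against 329 and 118 CPM in Alox15-led cells, and Sprr1b, at 2526 and 494 CPM against 140 and 32.0 CPM. Over the whole set S100a9, the partner of S100a8, stood at 25.8 CPM (18.9 to 34.4) and 93.1 CPM (81.0 to 106) against 0.683 and 0.741 CPM in score-low cells, from 8 and 19 cells, with 41.3% and 46.3% of its UMIs in 1 cell. Between the lead groups it was at 221 CPM (160 to 296) and 242 CPM (198 to 293) in Krt16-led cells against 1.27 CPM (0.154 to 4.60) and 4.88 CPM (2.23 to 9.26) in Alox15-led cells. Sprr2f, Sprr2h and Krt17 were among the 5 furthest apart with it, and so was 2310046K23Rik. Of the interleukin-1 family 4 genes were measured, and 1 of them reached 20 CPM in Alox15-led cells, so their calls as higher were largely set by the level filter. They include Il1rn, the receptor antagonist (160 and 126 CPM against 36.3 and 34.1), and Il33, an alarm cytokine (256 and 32.0 against 3.82 and 4.88). Il1f6 (interleukin-36α) was at 236 and 22.9 CPM against 0 in both libraries of Alox15-led cells, but came from few cells: 2 and 6 score-high cells held it, and 1 cell had 97.9% and 74.4% of its UMIs. Slpi, a protease inhibitor, was at 556 and 162 CPM against 14.7 and 10.3 CPM, and Anxa1, a regulator of inflammation, at 5302 and 3315 CPM against 1082 and 1087 CPM. Lower were Ada, adenosine deaminase, at 15.0 and 64.0 CPM against 1376 and 1041 CPM, and the prolactin receptor gene Prlr, at 5.01 and 13.7 CPM against 113 and 124 CPM. The chemokine gene Cxcl14 was lower as well, at 75.2 and 121 CPM against 211 and 251 CPM. Dapk2, Glul and Ces1d, lower in Alox15-led than in score-low cells, were not called between Krt16-led and score-low cells.

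**Figure D3:**
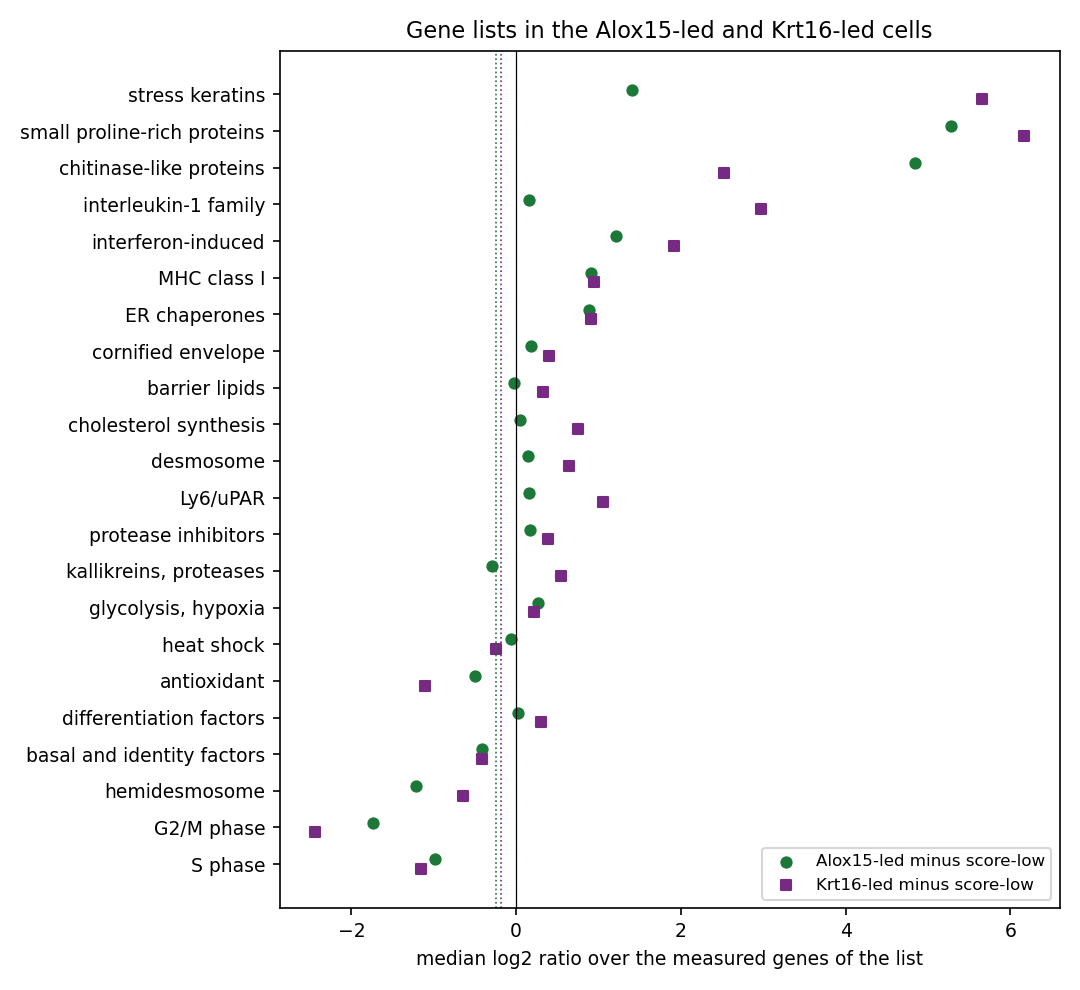
Median log2 ratio over the measured genes of each list, for Alox15-led (circles) and Krt16-led cells (squares) against score-low cells; dotted lines give the medians of all genes, -0.24 and -0.18. The class I (0.91 and 0.94) and endoplasmic reticulum (ER, 0.88 and 0.91) medians lie close for both groups and those of the 3 stress keratins (1.41 and 5.66) lie apart; in other lists the measured genes can differ between the groups, as in the interleukin-1 family with 1 and 4.

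**Figure D4:**
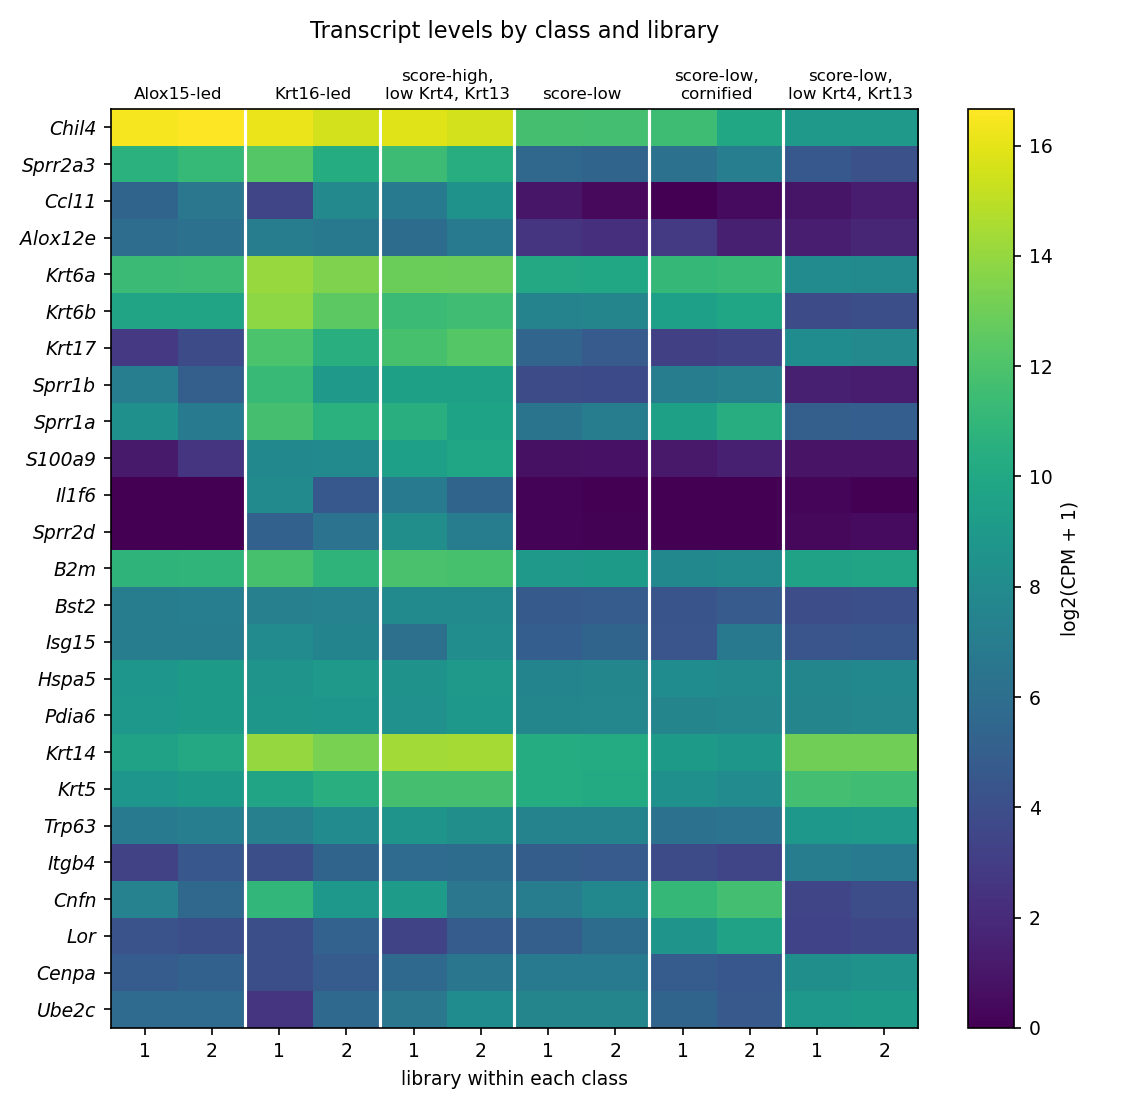
Levels of named genes as log2(CPM + 1) by class (column pairs) and library (1 and 2). Chil4 and Sprr2a3 are high in the 3 score-high classes on the left, whereas Krt17, S100a9 and Krt14 are higher in Krt16-led cells and in score-high cells with few Krt4 and Krt13 UMIs than in Alox15-led cells.

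The same score was met by 53 cells (27 and 26) with fewer than 80 Krt4 and Krt13 UMIs per 10000. None of them belongs to the set, and they were set against the 3490 and 4072 other cells under that keratin threshold. They share the score genes with the set but no cells. The makeup of the 2 sets differed: 0 and 0 of the score-high cells and 20 and 32 of the others were called immune. Cells with 10 or more UMIs of S and G2/M genes per 10000 were 22.2% and 38.5% of the score-high cells. They were 53.9% and 59.3% of the others. Median UMIs were 14159 and 11022 in the score-high cells against 6435 and 5373 in the others. The proteoglycan gene Dcn was at 4.94 and 18.4 CPM in the score-high cells against 223 and 242 CPM in the others, where the fibroblast collagen genes Col1a1, Col1a2 and Col3a1 were at no more than 0.162 CPM. The antigen-presentation gene Cd74 was at 4.94 and 12.3 CPM against 181 and 484 CPM. The 6 gland markers summed to 46.9 and 104 CPM in these score-high cells. Most of this was Wfdc2, at 62.7 CPM on average over the libraries, while Krt8, Aqp5 and Cldn10 were at 0 in both. The part of these differences in the results was not tested. Their median Krt14 was 201 and 221 UMIs per 10000, against 74.0 and 75.2 in the other cells. Of 5161 genes, 465 (9.01%) were higher and 1138 (22.0%) lower, with a median of -0.28. Only 306 of the higher genes reached 20 CPM in the other low-keratin cells, and 684 of the lower ones in these score-high cells. Chil4 was at 57917 and 46448 CPM in these score-high cells against 498 and 509 CPM in the other low-keratin cells, and Sprr2a3 at 2711 and 1316 CPM against 22.6 and 16.8 CPM. Krt17 was at 3622 and 4968 CPM against 269 and 226 CPM, and S100a9 at 689 and 914 CPM against 0.809 and 0.86 CPM. Class I genes (9 higher and 0 lower of 13) and interferon-induced genes (13 and 0 of 17) had medians of 1.23 and 1.69, with 12 of the 13 and 7 of the 17 at 20 CPM in the other cells. Of the 131 genes higher in the set and also compared here, 101 (77.1%) were higher here and 1 was lower. They are 26.0% of the 388 genes higher here that were compared in both. Of 435 lower genes 316 were lower here too and 0 were higher. The same score chose the score-high cells in both comparisons, so these shared calls are a description and not independent support. Of 18 measured G2/M genes 16 were lower here. Cycling cells were rarer among the score-high cells in both comparisons, and the part of this in the shared lower genes was not tested.

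Score-high cells were also set against score-low cells rich in cornification transcripts. Among score-low cells, 179 (70 and 109) held 10 or more UMIs of Cnfn, Lor and Crct1 per 10000, the genes that chose them. Of 4221 genes, 202 (4.79%) were higher and 376 (8.91%) lower in score-high than in these cornified cells, with a median of -0.02. Only 126 of the higher genes reached 20 CPM in cornified cells, and 272 of the lower ones in score-high cells. Chil4 was at 86931 and 92526 CPM in score-high cells against 2810 and 964 CPM in cornified cells, and per cell the cornified median of 2.23 and 2.67 lies at that of immune cells. B2m was at 2088 and 1911 CPM against 216 and 246 CPM. Of 13 measured interferon-induced genes 7 were higher and 0 lower (median 2.62), and 7 of the 13 reached 20 CPM in cornified cells. Lower were 11 of 13 measured cornified-envelope genes, Lor and Crct1 included (median -1.53), and 11 of 19 barrier lipid genes (-0.96), with 0 higher in either list. The envelope list contains the genes that chose the cornified cells. Krtdap, a keratinocyte differentiation gene, was at 5083 and 4194 CPM against 12331 and 12855 CPM, and Alox12b, an epidermal lipoxygenase needed for the skin barrier, at 10.6 and 9.57 CPM against 135 and 142 CPM. Cyp2a5, a cytochrome P450, and Tmem45a2 were the other genes among the 5 furthest below.

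Within the score-high cells, library 2 had 103 genes (2.45%) higher and 76 (1.81%) lower than library 1 of 4206 compared, although both came from 1 suspension. Only 50 of the higher genes reached 20 CPM in library 1, and 40 of the lower ones in library 2. S100a9 (93.1 CPM in library 2 against 25.8 CPM in library 1), 2810417H13Rik, Sprr2i, Ccl11 and Cd74 were furthest above. Cxcl9, an interferon-induced chemokine gene, stood at 2.61 CPM in library 2 against 99.8 CPM in library 1, where 1 cell gave 77.0% of its UMIs; Chil3, Gbp2, Sprr3 and Cxcl10 were the others furthest below. Cd74, which carries antigen on class II molecules, owed 57.1% and 78.4% of its UMIs in score-high cells of library 1 and library 2 to 1 cell each.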

How the data were processed

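UMI counts per gene and cell were deposited as 10x matrices made with Cell Ranger against mm10, per the submitters' processing notes; the version is not given in the sources used here. Library 1 held 7215 cell barcodes and 67962712 UMIs, and library 2 held 9076 and 73935792. Cells with under 500 genes or over 10% of UMIs from mitochondrial genes were dropped, which left out 308 and 513, all for mitochondrial UMIs. Counts were summed per class and library and scaled to CPM, with a count of 0 set to 3 in ratios. The 5 genes of the rule and mitochondrial genes were left out of the comparisons. No doublet caller was run. The libraries are technical replicates of 1 suspension, so no test was made and n is 1.

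Members and gene lists were chosen with earlier results of these data known. Named genes were the 12 furthest each way in the set (by the smaller of the 2 library ratios), the 5 furthest each way in other comparisons, fixed markers and keratins, and up to 4 examples per list; genes named beyond this (such as Sprr3, Dcn and Cd74) were chosen after their values were seen. Of 27998 genes, 27645 (98.7%) matched GENCODE M21 (GRCm38), and promoters came from RefSeq. Cells with 10 or more UMIs per 10000 of 6 immune genes were called immune. The alternatives were other thresholds, scalings, filters, weights and cell exclusions. The size rule was checked on simulated data. Work was done in Python 3.11.15 with pandas 2.3.3, numpy 2.4.6, matplotlib 3.10.9 and scipy 1.17.1.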

Additional observations from a re-analysis of the deposited data

How the results depend on the processing

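No paired analysis was possible because no test was made and the 2 libraries are technical replicates of 1 suspension. Signs were followed for list medians and for the genes furthest each way in the set, with the fixed markers and keratins. None of these that was called in the main comparison changed sign under the alternatives run. Signs of the other called genes were not checked. The balance of higher and lower genes did turn with scaling, and several medians near 0 changed sign. The basal keratin median was 0.16, and -0.41 with the top 5% of UMIs left out. In Alox15-led cells it was -0.49, and 0.28 with weighting. For score-high against score-low cells, the 139 higher and 444 lower genes became 248 and 199 with median-of-ratios scaling, 224 and 274 with Chil4 and the 5 rule genes left out of the totals, 76 and 162 at a mean of 50 CPM, and 421 and 1878 at 1 CPM. The higher genes were 295 in cells with at least 2 score genes. The lower genes were 236 with score-low cells weighted by Krt4 and Krt13, 260 at a Krt4 and Krt13 threshold of 160, and 250 with cycling cells left out. Single libraries gave 169 to 226 higher and 614 to 824 lower. Alox15-led cells had 232 higher and 201 lower with median-of-ratios scaling, 158 lower with weighting, and 168 to 189 higher and 730 to 852 lower in single libraries. Krt16-led cells had 752 lower with weighting, and 451 to 788 higher and 744 to 1370 lower in single libraries. Between Krt16-led and Alox15-led cells single libraries gave 726 to 929 higher and 303 to 639 lower, and against cornified cells 311 to 443 and 543 to 556. For low-keratin cells median-of-ratios scaling gave 722 higher and 699 lower, and single libraries 686 to 752 and 1596 to 1652. The share of score-high cells, 1.52% on average over the libraries (1.29 to 1.75), was 2.80% at a score of 5, 0.543% at 20, 1.92% with thinned cells and 1.98% at a limit of 5% mitochondrial UMIs. List medians stayed on their side of 1.5-fold in 695 recomputations, and crossed it in 20 upward and 22 downward; named genes stayed in 525 and lost the call in 64. Krt5 lost its call with median-of-ratios scaling (log2 -0.87 on average) and with weighting (-0.53), and Krt14 with thinned cells (0.82). The cause of these shifts was not tested. Genes from few cells (Sprr2f, Pyy, Chil3, Il1f6) are limited by depth and cell number.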
